A study of Mus musculus with 5 samples.

Results

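The genes described here form the machinery by which cells show fragments of their own proteins on MHC class I molecules, together with the interferon-inducible form of the proteasome that cuts many of those fragments. The set held 10 genes, namely H2-K1, H2-D1, B2m, Tap1, Tap2, Tapbp, Psmb8, Psmb9, Psmb10 and Nlrc5. A gene counted as measured when the platform annotation gave it a probe set with that symbol and no other, and where there were several the probe set with the highest mean over all arrays was taken. By this rule 9 of the 10 genes were measured, out of 18820 genes in the whole table. H2-D1 was not, because the probe set that names it also names H2-K1. RNA came from livers of adult C57Bl/6 mice. The 3 control livers were from mice given rat IgG, and the 2 treated livers were from mice given M279, an antibody against the receptor CSF1R, on which macrophages depend. Both groups had been injected into the peritoneal cavity with 300 µg, 3 times a week for 6 weeks. No allele or transgene is named for either group, and the labels do not tell how many animals stand behind a sample. The p-values therefore cover the spread among these samples, which may be technical.

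MHC class I molecules are made of a polymorphic heavy chain and the invariant light chain beta-2 microglobulin. Peptides cut by the proteasome in the cytosol are carried into the endoplasmic reticulum by the transporter TAP, are loaded on the heavy chain with the help of tapasin and other chaperones, and reach the cell surface, where CD8+ T cells read them. Nearly all nucleated cells use this pathway, and gamma interferon raises its genes, including the immunoproteasome subunits that replace the constitutive catalytic subunits. In the liver the pathway runs in hepatocytes as well as in Kupffer cells, which are the resident macrophages, and in sinusoidal endothelium. In a whole liver, fewer cells of a type and less RNA per cell cannot be told apart.

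The 5 arrays had median intensities of 32.5 to 33.9, and any pair of them correlated at a Pearson's r of 0.983 to 0.992 over log2 values. Values below are log2 intensities, and a difference is the treated mean minus the control mean with limma's standard error (SE). No probe set among 35556 passed an adjusted p of 0.05 in limma (0% of the table), while 3594 higher (10.1%) and 2965 lower ones (8.34%) had an unadjusted p under 0.05. The hepatocyte genes Alb and Apoa1 lay between 12.97 and 13.20 on every array. They differed least of the 6 listed hepatocyte markers, while Tat differed by -0.29, Cps1 by -0.20, Ttr by 0.09 and Apob by -0.03. Control replicate 2 had the highest value of the controls for 18 of the 19 Nlrc5 probe sets described below, and for Ccl5, a chemokine of T cells, it stood at 8.37 against 5.68 on both other controls.

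Of the 9 measured genes, none passed the adjusted threshold, and Tap1 alone had an unadjusted p under 0.05 in limma, as did 8.34% of all probe sets in the lower direction. Differences were small, from -0.46 for Tap1 to 0.13 for B2m, with 6 genes below 0 and 3 above. Of all probe sets 42.8% had a difference below 0, and of genes whose probe set lay at or above the table's median intensity 66.1%. All 9 genes were in that brighter class. The median difference was -0.11, against 0.05 over all probe sets and -0.10 over the 10488 brighter genes. Both treated arrays lay below all controls for 4 genes and above them for 1. Over all probe sets these shares were 16.9% and 24.3%, and over the brighter genes 32.6% and 8.64%, so the counts sat close to those of other genes of like brightness. The list's median was 0.0023 without treated replicate 1 and -0.0377 without control replicate 2.

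**Figure D1:**
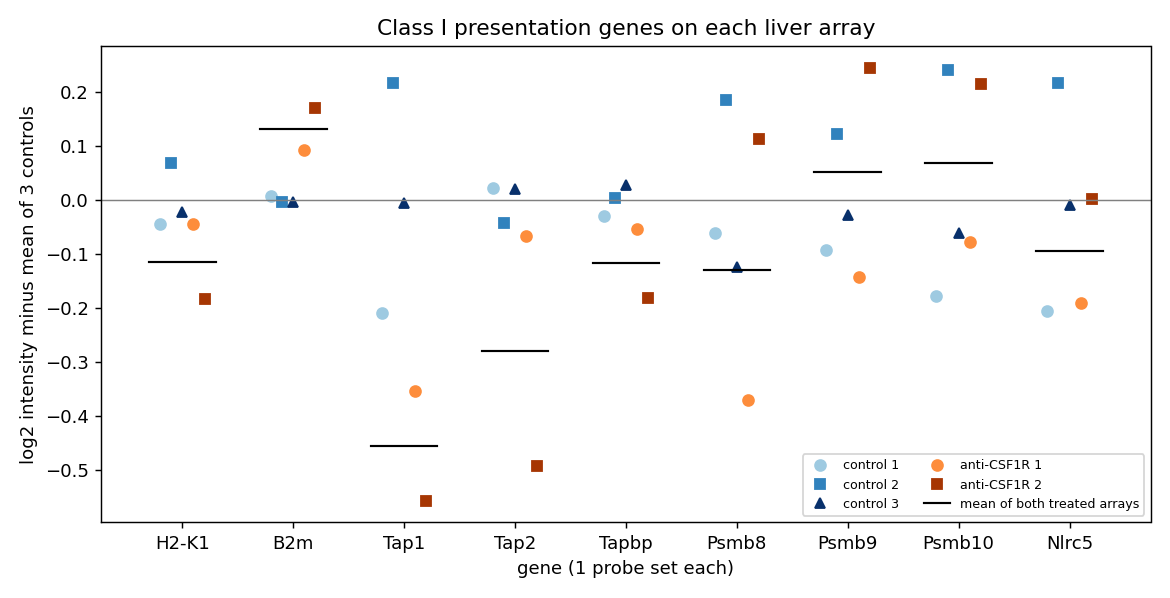
Log2 intensity of each class I presentation gene on each array, minus the mean of its 3 controls (vertical axis), with 1 probe set per gene (horizontal axis). Points are arrays and the short line is the mean of both treated arrays. Tap1 lay below all controls on both treated arrays, with a mean difference of -0.46, while the 3 immunoproteasome genes overlapped the controls.

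The heavy chain and the light chain differed in sign. H2-K1, a classical class I heavy chain, was at 11.12, 11.24 and 11.15 in controls and at 11.12 and 10.99 in treated livers. Its difference was -0.11 ± 0.11 (SE; limma, adjusted p = 0.555), and treated replicate 1 lay under the lowest control by less than the rounding of these values. B2m, the light chain shared by all class I molecules, was at 12.31, 12.29 and 12.30 in controls and at 12.39 and 12.47 in treated livers. The controls lay close together and both treated arrays lay above them, but the difference of 0.13 ± 0.10 was within 2 SE (limma, adjusted p = 0.471). It was 0.0134 after cyclic loess normalization. The probe set that names H2-D1 and H2-K1 together was at 10.94, 10.96 and 11.06 in controls and at 11.00 and 10.93 in treated livers, a difference of -0.02 ± 0.10, with the groups overlapping. Class I heavy chain genes are close copies of each other, so any probe set named for 1 of them can also take up transcripts of its relatives, and the H2-K1 values are uncertain for that reason.

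The stretch before the start of B2m is shown because it holds letters known from interferon-responsive genes. It comes from RefSeq on build GRCm38.p6 (chr2:122147437-122147686, plus strand), and capitals mark matches, in order, to an interferon-stimulated response element (ISRE, searched as GAAA, any pair of bases and GAAA again) and to a CCAAT box read on the other strand.
B2m: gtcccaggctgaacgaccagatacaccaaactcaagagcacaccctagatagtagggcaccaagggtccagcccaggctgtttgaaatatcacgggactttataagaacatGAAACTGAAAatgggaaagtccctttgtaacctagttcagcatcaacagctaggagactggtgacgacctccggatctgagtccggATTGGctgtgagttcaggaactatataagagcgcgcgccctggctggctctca
Both strands were searched, no match overlapped another, and 2.98% of 32851 windows of 250 bases before a gene start held an ISRE match, against 33.8% with a CCAAT box. RefSeq windows were found for 8 of the 10 genes, and among them B2m was the gene with an ISRE match. A match describes letters and does not show binding.

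By the brightest probe set of each gene, the transporter genes had the lowest differences of the set. Tap1, which encodes a subunit of the peptide pump, was at 7.47, 7.90 and 7.68 in controls and at 7.33 and 7.12 in treated livers. Both treated arrays lay below every control, and the difference was -0.46 ± 0.16 (SE), or 0.729 times the control level, with an unadjusted p of 0.0276 and an adjusted p of 0.235 in limma. It kept its sign in all 17 alternatives, between -0.56 and -0.33. The filters, probe sets tested, variance model and choice of probe set could not move it, as Tap1 has 1 probe set. With both treated arrays in the fit, adjusted p-values ran from 0.124 to 0.456 in limma. Tap2, the other subunit of the same pump, was at 6.76, 6.69 and 6.75 in controls and at 6.67 and 6.24 in treated livers. The difference of -0.28 ± 0.15 (limma, adjusted p = 0.343) came mostly from treated replicate 2, at -0.49 from the control mean, against -0.07 on treated replicate 1. Tapbp, which encodes the loading chaperone tapasin, was at 9.32, 9.36 and 9.38 in controls and at 9.30 and 9.17 in treated livers. Again both treated arrays lay below the controls, by little, and the difference was -0.12 ± 0.10 (limma, adjusted p = 0.528).

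Tap1 and the immunoproteasome gene Psmb9 start back to back on chromosome 17 and run away from each other, so they share the stretch between their starts. In RefSeq order Psmb9, Tap1, Psmb8 and Tap2 are 4 neighbouring protein-coding genes. The stretch of 225 bases between the Psmb9 and Tap1 starts is shown because the 2 genes that share it had unlike values (GRCm38.p6, chr17:34187331-34187555, plus strand, Psmb9 to the left and Tap1 to the right). Capitals mark a CCAAT box.
Psmb9-Tap1 stretch: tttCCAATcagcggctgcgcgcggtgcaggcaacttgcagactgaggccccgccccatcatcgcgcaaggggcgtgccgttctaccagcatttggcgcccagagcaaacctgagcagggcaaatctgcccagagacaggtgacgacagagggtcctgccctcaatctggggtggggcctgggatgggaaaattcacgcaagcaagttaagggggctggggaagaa
Neither the ISRE letters, nor TTCNNNGAA (a gamma-activated site, GAS), nor TGACGC (the core of the X2 box of class I promoters) was found in it on either strand, which says nothing of the factors themselves. On treated replicate 2, Tap1 stood -0.56 from its control mean and Psmb9 0.24. On treated replicate 1, they stood at -0.36 and -0.14. The difference between the 2 genes was not tested.

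The 3 immunoproteasome subunits did not separate the groups. Psmb8, which takes the place of the constitutive subunit Psmb5, was at 6.95, 7.20 and 6.89 in controls and at 6.64 and 7.13 in treated livers. Psmb9, which replaces Psmb6, was at 7.29, 7.51 and 7.36 in controls and at 7.24 and 7.63 in treated livers. Psmb10, which replaces Psmb7, was at 8.18, 8.60 and 8.30 in controls and at 8.28 and 8.57 in treated livers. In each of them treated replicate 2 was the higher treated array and the groups overlapped. The differences were -0.13 ± 0.18, 0.05 ± 0.15 and 0.07 ± 0.17 in that order (SE; limma, adjusted p of 0.689, 0.861 and 0.828). Their signs rested on single arrays: Psmb8 was at 0.11 without treated replicate 1, Psmb9 at -0.14 and Psmb10 at -0.08 without treated replicate 2, and Psmb10 at -0.0211 without control replicate 1. Psmb8 was also at 0.0148 after quantile normalization and 0.0065 after cyclic loess.

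The stretch before the Psmb8 start is shown as the window among the 8 genes with a GAS match, marked in capitals (GRCm38.p6, chr17:34197945-34198194, plus strand).
Psmb8: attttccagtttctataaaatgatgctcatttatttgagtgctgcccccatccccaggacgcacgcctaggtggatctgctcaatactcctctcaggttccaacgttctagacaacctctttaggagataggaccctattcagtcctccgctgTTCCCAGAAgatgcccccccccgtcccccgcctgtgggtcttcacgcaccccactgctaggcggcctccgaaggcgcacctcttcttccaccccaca
Of all windows of this length 7.02% held a GAS match and 6.12% the X2 core, which was found before H2-K1 and H2-D1.

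The constitutive subunits had differences above 0, carried mostly by treated replicate 2. Psmb5 was at 11.38, 11.30 and 11.29 in controls and at 11.36 and 11.57 in treated livers (difference 0.14 ± 0.11). Psmb6 differed by 0.24 ± 0.14, with 0.07 for the first treated array and 0.40 for the second, and Psmb7 by 0.19 ± 0.12. The median of the 3 genes was 0.19, and 0.0682 without treated replicate 2. Of the 3, Psmb7 alone had both treated arrays above all controls, as did 24.3% of all probe sets and 8.64% of the brighter genes. None passed in limma (adjusted p of 0.373 to 0.489). Each immunoproteasome subunit was therefore also set against the subunit it replaces on the same array, as a log2 ratio measured from the control mean. For Psmb8 over Psmb5 the ratio was -0.11, 0.21 and -0.09 in controls and -0.41 and -0.14 in treated livers. Both treated arrays lay below all controls in that pair, by a mean of -0.27 (exact two-sided permutation test, p = 0.2). Psmb9 over Psmb6 was lower by -0.18 (exact permutation p = 0.3) and Psmb10 over Psmb7 by -0.12 (exact permutation p = 0.9), with overlapping groups in both. With 2 arrays against 3 such a test cannot give a p below 0.1, and these 3 p-values are not adjusted.

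**Figure D2:**
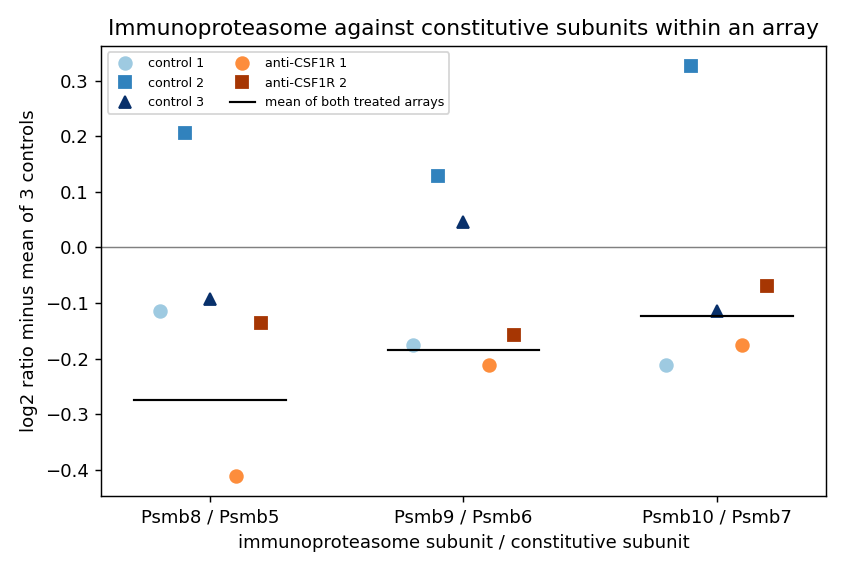
Log2 ratio of each immunoproteasome subunit to the constitutive subunit it replaces, within an array and minus the mean of the 3 controls. Points are arrays and short lines the mean of both treated arrays. The mean was below 0 in all 3 pairs (-0.27, -0.18 and -0.12), and control replicate 2 had the highest ratio in each.

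Nlrc5 encodes the transactivator that drives class I heavy chain, B2m, Tap1 and Psmb9 transcription, acting with the RFX factors at class I promoters. Its brightest probe set was at 7.92, 8.34 and 8.11 in controls and at 7.93 and 8.13 in treated livers. These groups overlapped, and the difference of -0.09 ± 0.16 (limma, adjusted p = 0.739) was 0.0144 without control replicate 2, 0.0023 without treated replicate 1 and 0.0016 after cyclic loess. The annotation gave Nlrc5 18 other probe sets, and the brightest had the smallest difference of all 19. Every one of the 19 had a difference below 0, with a median of -0.36 and a range from -0.72 to -0.09. In 14 of them (73.7%) both treated arrays lay below all controls. Of all probe sets, 16.9% did so, and 28.4% of those at or above the median intensity. Within single genes, the share ran from 0% to 100% among the 30 genes with at least 10 probe sets of their own. It was 100% for Ptpn3, 75% for Ltn1 and 66.7% for Dnajc13.

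The lowest of these probe sets was at 6.41, 6.89 and 6.52 in controls and at 5.90 and 5.88 in treated livers, a difference of -0.72 ± 0.17 (SE; limma, unadjusted p = 0.00488). The next was at 7.46, 7.80 and 7.60 in controls and at 7.10 and 6.87 in treated livers, a difference of -0.63 ± 0.15. Neither overlapped, and both had an adjusted p of 0.192 in limma. Of the 19, 8 had an unadjusted p under 0.05 and 0 passed. Their median was -0.31 for the first treated array and -0.39 for the second, so both treated livers carried it. Without control replicate 2, the highest control for 18 of the 19, the median was -0.24, with 18 below 0 and 14 below both remaining controls, as were 21.6% of all probe sets. The count below all controls was 7 after quantile normalization and 8 after cyclic loess, with medians of -0.21 and -0.24. The share of all probe sets was not computed under these scalings, so both counts lack a background. These probe sets read the same gene on the same arrays and are not independent of each other. Among the 30 genes with at least 10 probe sets of their own, 7 had all of them below 0, and Nlrc5 had the second lowest median, after Ptpn3 at -0.44.

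**Figure D3:**
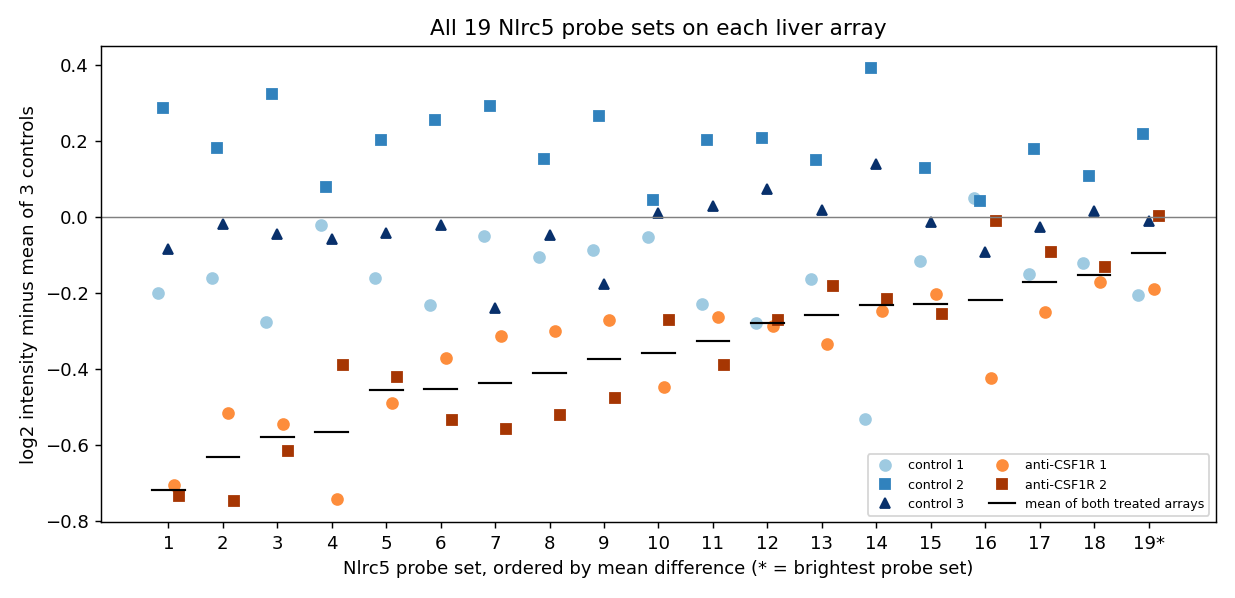
Log2 intensity of the 19 probe sets of Nlrc5 on each array, minus the mean of the 3 controls, ordered by mean difference. Points are arrays, short lines the mean of both treated arrays, and the star marks the brightest probe set. The lines run from -0.72 to -0.09, all below 0, and control replicate 2 is the highest control in 18 of the 19.

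Other genes of the pathway were taken from fixed lists. Of the other class I and class I-like heavy chains, 16 of 20 were measured, with 9 below 0 and 7 above, a median of -0.04 and 0 past the adjusted threshold. Those with the smallest p were Mr1, which presents microbial vitamin B2 metabolites (-0.50 ± 0.16, SE), H2-Q6 (-0.40 ± 0.16), H2-Q2 (0.29 ± 0.12) and the lipid-presenting Cd1d1 (-0.26 ± 0.12). Mr1 was at 7.97, 8.08 and 8.10 in controls and at 7.78 and 7.32 in treated livers. These 4 were named for their small p, and over the whole list the groups did not overlap in 5 of 16 genes, 3 with both treated arrays below all controls and 2 above. Over all probe sets 16.9% lay below and 24.3% above. The neonatal Fc receptor chain Fcgrt (0.11 ± 0.10) and the iron regulator Hfe (0.12 ± 0.12), which also pair with B2m, differed by less than 2 SE.

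None of the genes listed for peptide loading and trimming passed in limma. The list was wider than that name, as it also held Sec61a1 and Sec22b. All 9 measured genes of 11 had a difference below 0, as did 66.1% of the brighter genes and 42.8% of all probe sets. Their median was -0.24, against -0.10 over the brighter genes. In 7 both treated arrays lay below all controls, against 32.6% of the brighter genes and 16.9% of all probe sets. The 4 with the smallest p were Pdia3, the disulfide isomerase ERp57 of the loading complex (-0.24 ± 0.10), the translocon subunit Sec61a1 (-0.28 ± 0.12), Erap1, which trims peptides to length in the endoplasmic reticulum (-0.29 ± 0.14), and the cytosolic peptidase Tpp2 (-0.26 ± 0.13). The chaperones calreticulin (Calr, -0.24 ± 0.13) and calnexin (Canx, -0.23 ± 0.14) had like values. The list's median was -0.12 for the first treated array and -0.38 for the second. It was -0.24, -0.20 and -0.21 under quantile normalization, median centring and cyclic loess, with 8 of 9 below 0 under the first and the last.

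The remaining subunits of the 20S proteasome core and its assembly factors had differences above 0. All 15 measured genes of 16 had a difference above 0, with a median of 0.12, 0 past the threshold, and 3 with both treated arrays above all controls. Of all probe sets 24.3% lay so, and of the brighter genes 8.64%. The genes of smallest p were the core subunits Psmb1 (0.31 ± 0.15), Psma7 (0.22 ± 0.13) and Psma6 (0.15 ± 0.10) and Pomp, the maturation protein of the proteasome (0.30 ± 0.16). This rested on treated replicate 2, where the median was 0.23. On treated replicate 1 it was 0.0058, with 7 genes below 0 and 8 above. The activator genes that gamma interferon is known to raise had mean differences near 0, Psme1 of 0.01 ± 0.11 and Psme2 of 0.03 ± 0.16. For Psme2 this averaged -0.18 for the first treated array, below all controls, and 0.25 for the second, above all of them. The other activators were at -0.15 ± 0.11 (Psme3) and 0.03 ± 0.10 (Psme4).

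**Figure D4:**
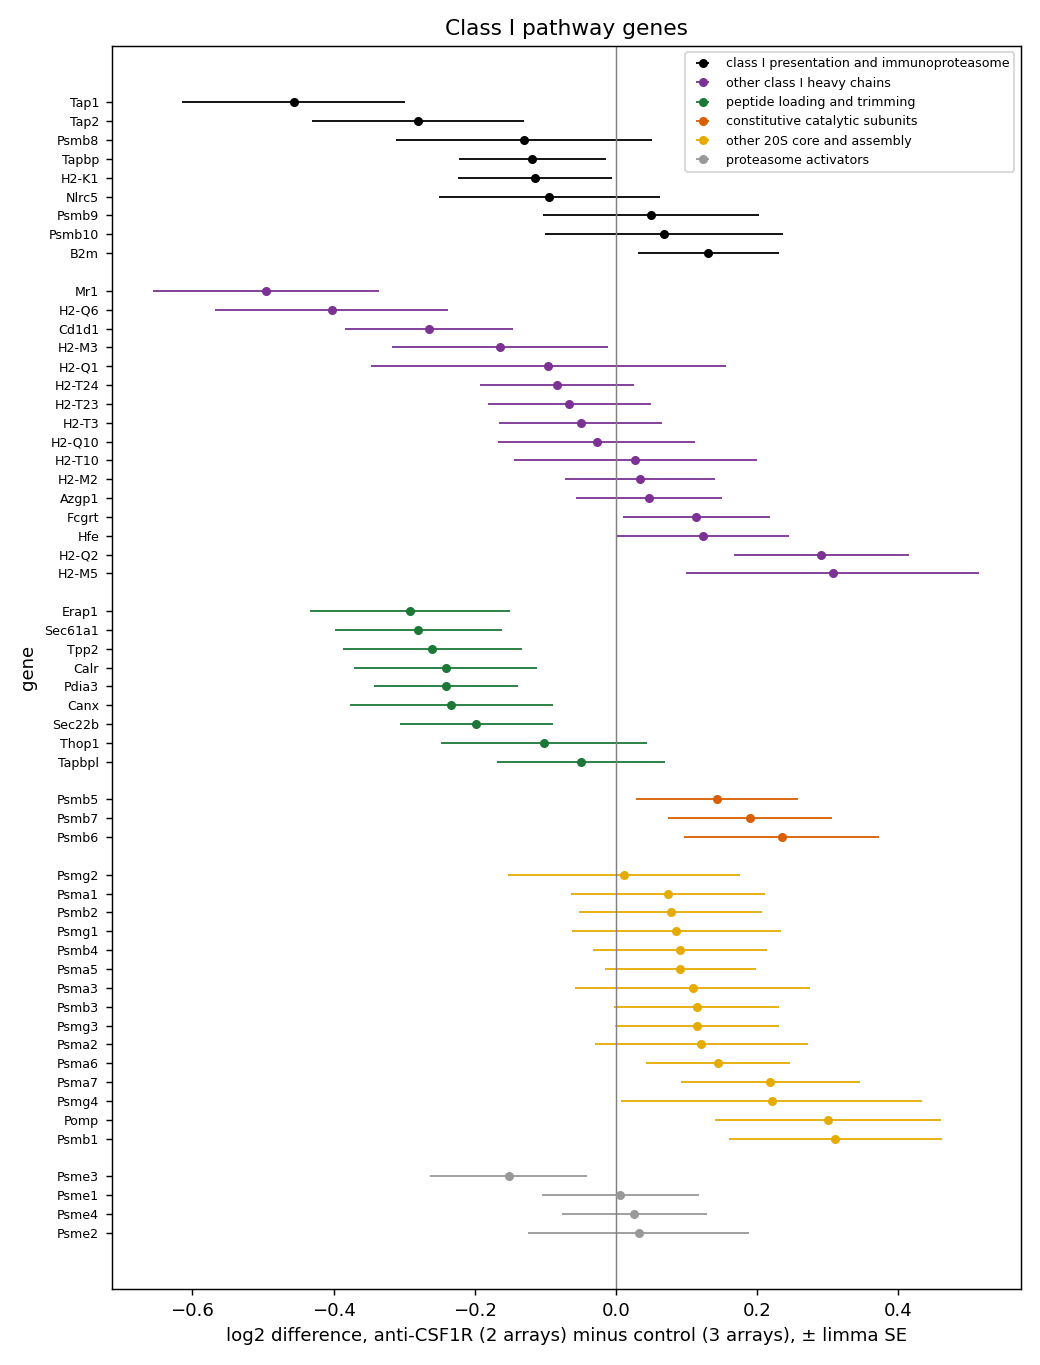
Log2 difference of each measured gene of the class I pathway (horizontal axis, 2 treated minus 3 control arrays, bars ± limma SE), grouped by list. All 9 genes of the loading and trimming list, which includes Sec61a1 and Sec22b, lie below 0. All 18 constitutive core, catalytic and assembly genes lie above it, while the 9 class I presentation genes lie on both sides.

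**Figure D5:**
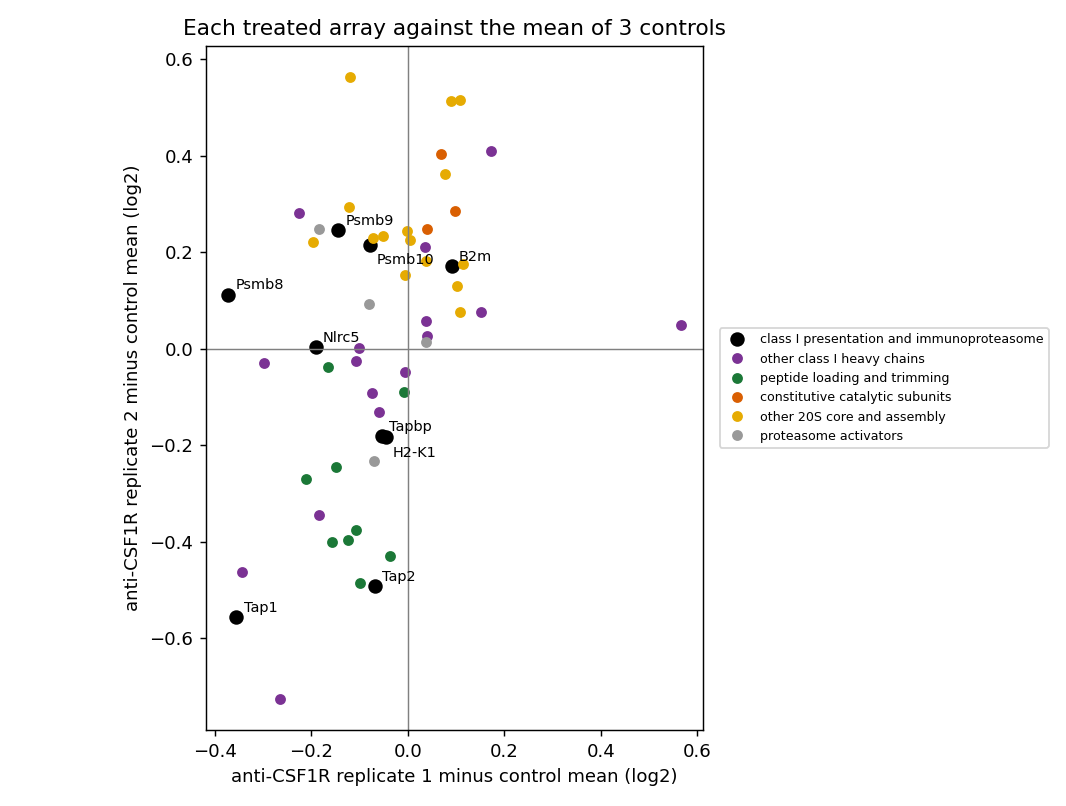
Difference from the mean of the 3 controls on treated replicate 1 (horizontal axis) and treated replicate 2 (vertical axis), both log2, for the same genes. Both axes share the controls. Tap1 is low on both arrays (-0.36 and -0.56), whereas Psmb8, Psmb9 and Psmb10 lie below 0 on replicate 1 and above it on replicate 2.

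Among transcription factors of class I genes, 14 of 17 were measured, with 11 below 0, a median of -0.12 and 0 past the threshold. Of the brighter genes 66.1% were below 0, with a median of -0.10, and of all probe sets 42.8%, with a median of 0.05. Stat2, which carries type I interferon signals, was at 9.15, 9.11 and 9.12 in controls and at 8.70 and 8.31 in treated livers (-0.62 ± 0.14, SE; limma, adjusted p = 0.192). The other genes of smallest p were Nfya, a subunit of the CCAAT-binding factor (-0.39 ± 0.14), Nfyb of the same factor (-0.22 ± 0.11) and Irf1 (0.23 ± 0.12), a factor that gamma interferon induces. Rfx5, the DNA-binding RFX subunit through which NLRC5 acts, differed by -0.17 ± 0.12. The list's median was -0.03 under quantile normalization and under cyclic loess.

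Of the interferon ligands, receptors and kinases, 5 of 10 were below 0 and 5 above, and none passed. The kinase Tyk2 (-0.45 ± 0.11) and the gamma interferon receptor chain Ifngr1 (-0.36 ± 0.11) had lower values in both treated arrays. The dim probe sets of Ifnb1 (0.49 ± 0.12) and Ifng (0.39 ± 0.11), near 3 and 4 on the log2 scale, had higher ones. Of all probe sets, 24.3% had both treated arrays above all controls and 16.9% below. The median difference was 0.05 over all probe sets and -0.09 over those at or above the median intensity. Genes of the GTPases that gamma interferon induces had a median of -0.30 over 7 measured genes, 6 of them below 0. That median was -0.08 without control replicate 2, -0.10 without treated replicate 2 and -0.43 without treated replicate 1. Their smallest p-values were those of Irgm1 (-0.31 ± 0.16), Gbp7 (-0.36 ± 0.20), Iigp1 (-0.18 ± 0.14) and Gbp5 (-0.36 ± 0.28).

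MHC class II genes, which serve presentation to CD4+ T cells by professional antigen-presenting cells, had more negative differences than the class I set. Over 9 measured genes the median was -0.60, or -0.38 without treated replicate 1. In 5 both treated arrays lay below all controls, against 16.9% of all probe sets and 32.6% of the brighter genes. The smallest p were those of H2-Ab1 (-0.98 ± 0.23) and Ctss (-0.60 ± 0.16). The difference between the class I and class II sets was not tested. Receptors that sense class I on lymphoid and myeloid cells were mostly dim, with a median level of 3.87, though Pirb and Klra2 lay above the table's median intensity. Of 7 measured ones 6 had a difference above 0, and 4 of 7 after quantile normalization or cyclic loess. Of all probe sets 42.8% had a difference below 0. Klra3 was at 0.47 ± 0.15 and Klra2 at -0.63 ± 0.24.

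No marker of the liver's cell types passed in limma, and differences between the marker lists were not tested. The Kupffer cell markers had 9 of 11 below 0 and a median of -0.25. All 11 lay above the table's median intensity. Of genes at or above it 66.1% were below 0, with a median of -0.10, and of all probe sets 42.8%. The summed level of a list is the log2 of its summed linear intensities, so the brightest genes weigh most. For Kupffer cell markers it was 12.04 to 12.27 in controls and 11.71 and 12.13 in treated livers. Their median was -0.54 for the first treated array and 0.0082 for the second. Cd163 (-0.80 ± 0.16) and Marco (1.34 ± 0.17) had the smallest p of them. The B cell markers, of which 3 were measured, had a median of -0.46 for the first treated array and 0.29 for the second, and their summed level was 7.04 to 7.23 in controls and 6.76 and 7.44 in treated livers. In the mean, Cd79b (0.06 ± 0.20), Cd79a (-0.08 ± 0.22) and Ms4a1 (-0.15 ± 0.23) differed by less than 1 SE. Psmb8, Psmb9 and Psmb10 followed the same order of the 2 treated arrays. So did the medians of all lists except loading and trimming, gamma interferon GTPases and sinusoidal endothelial markers. The order was thus not particular to Kupffer or B cell markers. The part of these 2 cell types in the values of Psmb8, Psmb9 and Psmb10 was not tested.

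T and NK cell markers had 4 of 14 below 0, a median of 0.09 and summed levels of 8.31 to 9.34 in controls and of 8.42 and 8.65 in treated livers. Most were dim, with a median level of 4.18. Of all probe sets 42.8% had a difference below 0, with a median of 0.05. After quantile normalization 7 of 14 lay below 0, with a median of 0.0164, and after cyclic loess 8 of 14, with a median of -0.0198. Ifng, named above, and Cd8b1 (0.31 ± 0.13) had the smallest p. Dendritic cell markers had a median of 0.01 over 6 genes (-0.04 after quantile normalization and -0.07 after cyclic loess), with Clec9a at -0.43 ± 0.20 and Flt3 at 0.18 ± 0.15. The 3 measured monocyte and neutrophil markers were dim, at intensity percentiles of 39.1 to 43.9. All 3 were above 0, S100a9 at 0.31 ± 0.10, S100a8 at 0.23 ± 0.12 and Ccr2 at 0.09 ± 0.10, while 1 of the 3 lay below 0 after cyclic loess. The median difference was 0.05 over all probe sets and -0.09 over those at or above the median intensity. Sinusoidal endothelial markers had a median of -0.10 over 7 genes, with Clec4g at 0.31 ± 0.10 and Lyve1 at -0.33 ± 0.18. Hepatocyte markers had a median of -0.02 over 6 genes and summed levels of 15.35 to 15.42 in controls and of 15.30 and 15.36 in treated livers, with Tat at -0.29 ± 0.14. After cyclic loess that median was -0.16, and all 6 genes had both treated arrays below all controls. In the main run 1 of the 6 lay below and 1 above, against 16.9% and 24.3% of all probe sets. After median centring 0 lay below and 1 above. The share of all probe sets was not computed under either scaling. No marker was at 0 on any array, which does not show that each was detected. Klrb1c, for example, lay at an intensity percentile of 13.1.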

How the data were processed

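RNA from 3 control and 2 treated livers was amplified with a NuGEN kit and labelled with biotin, per the labels' protocols. The authors deposited 1 intensity per probe set and array on a linear scale. The submitters' processing notes name Affymetrix Expression Console 1.1, while its settings for summarisation and normalization were not given in the sources used here. What scaling was done is therefore unknown, and a shift with brightness between arrays can move whole lists.

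Each deposited intensity was turned to log2 with no pseudocount or filter. The platform annotation, which can be old, gave 21218 probe sets 1 symbol, 1881 several and 12457 none, and symbols were updated through the RefSeq gene table of GRCm38.p6. Groups came from the sample labels. The main test was limma 3.58.1 (R 4.3.3; two-sided; lmFit, then eBayes, with 3 residual and 3.03 prior degrees of freedom). Its p-values were adjusted over the whole table of 35556 probe sets by Benjamini-Hochberg, and 0.05 was the threshold. The fit was tested on simulated data. Precision is limited by how few arrays there are, with a median SE of 0.138.

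The genes and lists were chosen with earlier results of these data known. All measured genes of the set are named, and up to 4 of smallest p from each other list (2 for cell markers); further list genes, and the 2 Nlrc5 probe sets given array by array, were picked with their values in view. The alternatives covered normalization, filters, the probe sets tested, the variance model, array weights, a block for the replicate number, each array left out and the choice of probe set. Python 3.11.15 and matplotlib 3.10.9 drew the figures.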

Additional observations from a re-analysis of the deposited data

How the results depend on the processing

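None of the 9 genes passed in limma under any alternative run, including a threshold of 0.1. H2-K1, B2m, Tap1, Tap2 and Tapbp kept their sign in all 17 alternatives. The filters, probe sets tested, variance model and choice of probe set could not move their estimates, as each has 1 probe set. When 1 array was left out, values ran from -0.3716 to 0.1116 for Psmb8, -0.1436 to 0.2449 for Psmb9, -0.0787 to 0.2154 for Psmb10 and -0.1972 to 0.0144 for Nlrc5. The sign turned for Psmb8 (0.0148 with quantile normalization, 0.0065 with cyclic loess, 0.1116 without treated replicate 1), Psmb9 (-0.1436 without treated replicate 2), Psmb10 (-0.0211 without control replicate 1, -0.0787 without treated replicate 2) and Nlrc5 (0.0016 with cyclic loess, 0.0144 without control replicate 2, 0.0023 without treated replicate 1). The median over the 9 genes was -0.0144 with quantile normalization and 0.0016 with cyclic loess, and -0.1375 to 0.0023 when 1 array was left out. The number of genes with groups apart was 5 in the main run, 4 with quantile normalization, 3 with arrays centred on their medians and 2 with cyclic loess. It was 5 to 7 without 1 array, and leaving out an array can only keep or raise it. Over all probe sets 16.9% lay below and 24.3% above, or 21.6% and 30.2% without control replicate 2. Shares under the other settings were not computed. For Nlrc5, in alternatives added after the data were seen, the probe sets with both treated arrays below all controls numbered 7 with quantile normalization and 8 with cyclic loess, against 14 in the main run. The cause of this fall was not tested, and the share of all probe sets under either scaling was not computed. When only probe sets with 1 symbol were fitted, 3 were called higher and 5 lower, and 5 higher and 9 lower with 1 probe set per gene, none of them among the 9 genes. With the replicate number as a block the median was -0.1045 and no call changed. Deviations of same-numbered arrays correlated at 0.0268 and 0.0325. The deviations of the 2 treated arrays mirror each other, so these are not 2 separate checks and cannot settle whether the samples were paired. The numbers were not taken to pair the samples. All arrays hold 1 liver sample each, and files of detection or background were not used here.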
